A study of Mus musculus with 35 samples.

Results

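The MHC class I antigen presentation genes are 10 genes, H2-K1, H2-D1, B2m, Tap1, Tap2, Tapbp, Psmb8, Psmb9, Psmb10 and Nlrc5, taken by their symbols from the 55487 rows of each of 4 deposited tables of mouse RNA-Seq counts. The tables hold 27 libraries of primary cardiac fibroblasts (CFs) from adult mice and 8 libraries of whole hearts. The CFs, kept as cells that adhere to collagen and grown in DMEM with serum, were transfected with a scrambled siRNA (Scrambled) or with 1 of 2 siRNAs (IAMP-siR-1 and IAMP-siR-2, hereafter siR-1 and siR-2) against 4930523C07Rik, the transcript that encodes the micropeptide IAMP. Each siRNA was used in untreated CFs, in CFs given IL-17 for 24 h after 24 h of siRNA, and in CFs given TGF-β for a time that the sources used here do not give, with 3 libraries in each of the 9 groups. The hearts were from 8-week-old C57BL/6 mice, 4 heterozygous (HET) and 4 homozygous (KO) for a CRISPR-Cas9 frameshift in IAMP, so the HET controls carry the mutant allele as well. No strain is given for the CFs, and the labels do not say whether the 3 libraries of a group came from separate cultures, so p values measure the spread between these libraries, which may be technical. All 10 genes passed edgeR's filter on low counts in every comparison.

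MHC class I molecules show peptides from inside a cell to CD8 T cells, and almost every nucleated cell carries them. The proteasome cuts proteins into peptides, and the immunoproteasome subunits encoded by Psmb8, Psmb9 and Psmb10 replace the constitutive catalytic subunits Psmb5, Psmb6 and Psmb7 in cells that meet interferon. The transporter of Tap1 and Tap2 pumps the peptides into the endoplasmic reticulum, where tapasin (Tapbp) holds the transporter next to an empty heavy chain, H2-K1 or H2-D1, bound to β2-microglobulin (B2m). Nlrc5 is a transcriptional activator of class I genes. Interferon-γ raises the whole set in many cell types, and fibroblasts, as stromal cells, express it at a lower level than lymphoid cells do.

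On GRCm38 (GENCODE vM21), 7 of the 10 genes lie on chromosome 17, in or beside the MHC. Tapbp (ENSMUSG00000024308) is at chr17:33915899-33929292, plus strand, H2-K1 (ENSMUSG00000061232) at chr17:33996017-34000347, minus strand, and Psmb9 (ENSMUSG00000096727) at chr17:34181987-34187764, minus strand. Tap1 (ENSMUSG00000037321) follows at chr17:34187553-34197225, plus strand, Psmb8 (ENSMUSG00000024338) at chr17:34197721-34201454, plus strand, Tap2 (ENSMUSG00000024339) at chr17:34203527-34216321, plus strand, and H2-D1 (ENSMUSG00000073411) at chr17:35262730-35267499, plus strand. Psmb9, Tap1, Psmb8 and Tap2 thus sit within 34.3 kb of one another. Away from the MHC, B2m (ENSMUSG00000060802) is at chr2:122147686-122153083, plus strand, Psmb10 (ENSMUSG00000031897) at chr8:105935735-105938444, minus strand, and Nlrc5 (ENSMUSG00000074151) at chr8:94434356-94527272, plus strand. Whether the authors' counting used strand is not given in the sources used here, and without strand the reads of overlapping exons cannot be told apart. The exons of Psmb9 and Tap1, on opposite strands, share 212 bases, which is 5.79% of the Psmb9 exons and 3.87% of those of Tap1. Antisense transcripts cover 24.9% of the Tapbp exons (Gm19412) and 14.7% of those of Psmb8 (Gm20496), and a long noncoding RNA covers 14.1% of those of Tap2 (Gm15821). Of all 100-base words in the transcripts of H2-D1, 3.59% also occur in other genes, mostly H2-Q1, as do 0.957% of those of H2-K1 with H2-Q10, so a small part of the heavy-chain counts may be shared with their relatives.

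The 250 bases before the start site are shown for H2-K1 and B2m, the heavy chain and the light chain that moved most in CPM between untreated and TGF-β-treated CFs. The sequences are RefSeq's on GRCm38.p6, read 5′ to 3′ on the strand of the gene, at chr17:34000348-34000597 (minus strand) and chr2:122147437-122147686 (plus strand). Capitals mark matches to an interferon-stimulated response element (ISRE, searched as GAAA, any 2 bases and GAAA), to an NF-κB site (by its consensus) and to a CCAAT box, on either strand.
H2-K1: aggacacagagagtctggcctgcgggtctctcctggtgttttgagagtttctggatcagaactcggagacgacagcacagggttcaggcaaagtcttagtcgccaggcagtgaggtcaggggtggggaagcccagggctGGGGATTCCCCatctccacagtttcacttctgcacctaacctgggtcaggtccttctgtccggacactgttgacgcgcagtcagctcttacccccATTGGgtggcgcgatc
B2m: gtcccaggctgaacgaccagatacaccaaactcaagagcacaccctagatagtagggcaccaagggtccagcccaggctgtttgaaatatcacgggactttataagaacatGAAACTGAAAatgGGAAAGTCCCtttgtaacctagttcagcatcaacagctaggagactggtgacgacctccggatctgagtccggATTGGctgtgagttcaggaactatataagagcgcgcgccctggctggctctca
The H2-K1 sequence holds overlapping NF-κB matches, each on both strands, that end, as printed, 101 and 100 bases before the start site. Its CCAAT box on the other strand ends 11 bases before the start site. The B2m sequence holds an ISRE match that ends, as printed, 129 bases before the start site. Its NF-κB match ends 116 bases before the start site, and its CCAAT box on the other strand ends 48 bases before it. RefSeq windows of 300 bases, from 250 before to 50 after the start site, were at hand for 8 of the 10 genes. A CCAAT match was present in 6 of them (H2-K1, H2-D1, B2m, Tap1, Tapbp and Psmb9), against 37.4% of the 32851 mouse windows searched. An NF-κB match was present in 3 (H2-K1, H2-D1 and B2m), against 8.46% of windows. The ISRE was found in 1 (B2m) against 3.44%, and the interferon-γ activated site (TTC, any 3 bases and GAA) in 1 (Psmb8) against 8.3%. The Psmb9 and Tap1 windows share 275 bases on opposite strands. Tap2 and Nlrc5 were not searched. These are matches of letters within a window, not sites shown to be bound.

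The CF libraries held 104139670 to 119232309 estimated counts, and the heart libraries 23497027 to 23857313 counts. Levels are counts-per-million (CPM) after TMM normalisation, computed over all 27 CF libraries together and over the 8 hearts apart. All 18 libraries that received a siRNA against IAMP had less 4930523C07Rik than all Scrambled libraries of their table. In untreated CFs it stood at 22 to 25.7 CPM in Scrambled and at most 3.51 CPM in knockdown libraries. Under IL-17 it stood at 16.8 to 20.8 CPM in Scrambled and at most 2.90 CPM in knockdown libraries. Under TGF-β it stood at 19.1 to 22.6 CPM in Scrambled and at most 4.58 CPM in knockdown libraries. In KO hearts it stood at 15.2 to 17.3 CPM against 15.9 to 18.8 CPM in HET hearts, and a frameshift that leaves the transcript is not checked by this level. Fibroblast markers (6 genes) summed to 8306 to 16578 CPM in CFs, macrophage markers to 20.5 to 45.2 CPM, endothelial markers to 44.8 to 105 CPM, and T and NK cell markers to at most 1.02 CPM, with Cd3e and Nkg7 at 0 in all 27 CF libraries. In bulk samples, fewer cells of a type and less RNA per cell cannot be told apart.

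In resting CFs the light chain was the most abundant product, and Psmb9 and Nlrc5 the least. Per kb of exon, in untreated Scrambled CFs, B2m stood at 808 ± 31.0 CPM per kb (SD, n = 3), H2-D1 at 84.3 ± 3.28, H2-K1 at 43.1 ± 1.52 and Tapbp at 31.6 ± 2.40. Lower on the same per-length scale were Psmb10 at 11.7 ± 1.24, Tap2 at 10.8 ± 0.421, Tap1 at 4.14 ± 0.664, Psmb8 at 2.94 ± 0.461, Nlrc5 at 0.597 ± 0.0657 and Psmb9 at 0.459 ± 0.15 CPM per kb. Of neighbours in this order, Psmb10 and Tap2 overlapped between libraries, as did Nlrc5 and Psmb9, and the others did not. Under TGF-β the order at the top was B2m at 4442 ± 205, H2-D1 at 487 ± 14.9 and H2-K1 at 461 ± 14.9 CPM per kb, and the libraries of the 2 heavy chains overlapped. In HET hearts B2m stood at 146 ± 30.3 CPM per kb (SD, n = 4), H2-D1 at 37.5 ± 3.35, H2-K1 at 20.9 ± 4.01 and Nlrc5, the lowest, at 0.239 ± 0.0424. Hearts and CFs were normalised apart, and no comparison between them was tested.

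**Figure D1:**
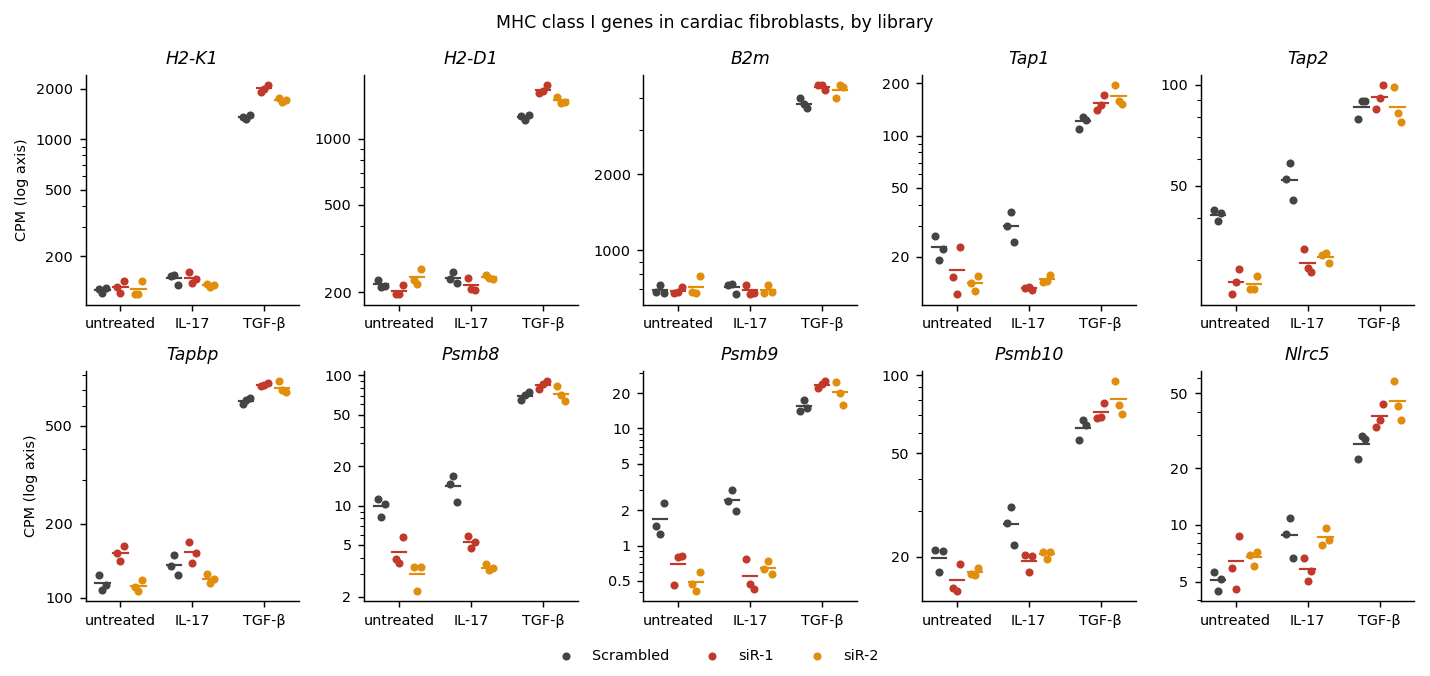
CPM of each of the 10 genes in the 27 CF libraries, 1 panel per gene with a log axis of CPM, groups by treatment and siRNA on the horizontal axis, points for libraries and a line for the group mean (n = 3). Under TGF-β all 10 genes stand above untreated CFs, and Psmb8, Psmb9 and Tap2 are lower with both siRNAs in untreated and IL-17-treated CFs.

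The first comparison asks how loss of IAMP changes the set in CFs that received no stimulus. The immunoproteasome subunits Psmb8 and Psmb9 and the transporter subunit Tap2 fell with both siRNAs, while H2-K1, H2-D1 and B2m, the parts that reach the cell surface, did not pass the test with either. The test was the quasi-likelihood F-test of edgeR on 19669 genes, a gene passed where its Benjamini-Hochberg adjusted p was 0.05 or below, and changes are log2 fold changes against Scrambled. Of the 10 genes, 4 passed as lower and 1 as higher with siR-1, and 3 passed as lower and 0 as higher with siR-2. Among all genes, siR-1 gave 20.4% lower and 19.5% higher, and siR-2 25% lower and 24.4% higher, so that 4 of 10 and 3 of 10 are to be read against a large background. Where a 2-fold change (1 on the log2 scale) was asked for too, as the study did in untreated CFs, Psmb8 and Psmb9 were lower with each siRNA, against 2.61% and 7.23% of all genes. The median log2 fold change of the 10 genes was −0.20 for siR-1 and −0.13 for siR-2, against −0.016 and −0.020 over all genes. Both comparisons share the Scrambled libraries. All siR-1 libraries lay below all Scrambled libraries for 3 of the 10 genes, against 24.9% of all genes, and all siR-2 libraries for 4, against 27.8%.

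Psmb8, the inducible chymotrypsin-like subunit, stood at 11.2, 8.21 and 10.4 CPM in the Scrambled libraries, 3.87, 3.65 and 5.78 CPM with siR-1 and 3.40, 2.23 and 3.37 CPM with siR-2. Every knockdown library was below every Scrambled library. The log2 fold change was −1.17 (SE 0.20, adjusted p = 0.000583) with siR-1 and −1.75 (SE 0.21, adjusted p = 1.67e-05) with siR-2. Psmb9, the inducible counterpart of Psmb6, stood at 1.47, 1.27 and 2.30 CPM in the Scrambled libraries. It stood at 0.459, 0.793 and 0.822 CPM with siR-1 and 0.475, 0.415 and 0.592 CPM with siR-2, and again no knockdown library reached the Scrambled range. Its log2 fold change was −1.29 (SE 0.29, adjusted p = 0.00191) with siR-1 and −1.78 (SE 0.30, adjusted p = 8.32e-05) with siR-2. These levels rest on 152 to 287 estimated counts in the Scrambled libraries and 47 to 92 in the knockdown libraries. All are above the floor of 18 estimated counts (about 3 read pairs, for counting error only). Tap1, whose exons share 212 bases with those of Psmb9, was more abundant per length, at 4.14 against 0.459 CPM per kb in the Scrambled libraries. The part of Tap1 reads in the Psmb9 level and in its fall was not tested. Psmb10, the inducible trypsin-like subunit, stood at 21.2, 17.5 and 21.0 CPM in the Scrambled libraries, 15.2, 14.9 and 18.8 CPM with siR-1 and 17.2, 17 and 18.1 CPM with siR-2. Psmb10 fell by 0.29 on the log2 scale with siR-1 (adjusted p = 0.016), and the call was lost when any of 4 libraries was left out (Scrambled 1 or 3, siR-1 1 or 2, adjusted p 0.0613 to 0.0889). With siR-2 it was −0.21 (adjusted p = 0.069) and did not pass, but it passed in 4 of 7 other settings.

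Of the transporter, Tap2 was at 42.3, 39.2 and 41.4 CPM in the Scrambled libraries, 23.8, 25.8 and 28.2 CPM with siR-1 and 24.7, 24.7 and 26.9 CPM with siR-2. The Scrambled and knockdown libraries did not overlap, and the log2 fold change was −0.66 (SE 0.063, adjusted p = 2.37e-07) with siR-1 and −0.70 (SE 0.063, adjusted p = 5.89e-08) with siR-2. Tap1, its partner subunit, stood at 26.5, 19.3 and 22.3 CPM in the Scrambled libraries, 15.2, 12.2 and 22.9 CPM with siR-1 and 14.2, 12.8 and 15.5 CPM with siR-2. The third siR-1 library, the highest knockdown library, lay within the Scrambled range. Tap1 did not pass at −0.44 (SE 0.24, adjusted p = 0.217) with siR-1 or at −0.70 (SE 0.24, adjusted p = 0.0529) with siR-2. Without that siR-1 library the value was −0.73 (adjusted p = 0.00201), and the siR-2 difference passed in 5 of 7 other settings. Tapbp, the bridge between transporter and heavy chain, rose with siR-1 alone, by 0.40 (SE 0.061, adjusted p = 0.000181), from 124, 107 and 112 CPM to 151, 141 and 162 CPM. With siR-2 Tapbp was at 111, 107 and 118 CPM, a difference from Scrambled of −0.054 (adjusted p = 0.521).

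The genes of the presented complex were level within a narrow range. H2-K1 ranged from 119 to 142 CPM over the 9 untreated libraries, with log2 fold changes of 0.045 (adjusted p = 0.747) and −0.015 (adjusted p = 0.916). H2-D1 ranged from 196 to 256 CPM, with log2 fold changes of −0.10 (adjusted p = 0.228) and 0.087 (adjusted p = 0.282). B2m ranged from 673 to 790 CPM, with −0.020 (adjusted p = 0.841) and 0.022 (adjusted p = 0.804). Nlrc5, the activator, stood at 5.59, 4.48 and 5.13 CPM in the Scrambled libraries, 5.90, 4.54 and 8.74 CPM with siR-1 and 6.96, 6.01 and 7.19 CPM with siR-2. Its siR-2 libraries lay above the Scrambled range, and neither difference passed the test, at 0.33 (adjusted p = 0.219) and 0.39 (adjusted p = 0.122), the latter passing in 2 of 7 other settings. The summed level of 20 interferon-stimulated genes, which move with class I genes in many cells, was 665 to 1079 CPM in Scrambled, 583 to 1026 CPM with siR-1 and 527 to 649 CPM with siR-2, and its part in the fall of Psmb8 and Psmb9 was not tested. Markers of other cells moved with the siRNAs too. The 6 cardiomyocyte markers summed to 90.2 to 98.0 CPM in Scrambled, 42.1 to 47.1 CPM with siR-1 and 27.7 to 32.7 CPM with siR-2. Of these, only Tnnt2 passed with both siRNAs (−1.08 and −1.66), and 2 to 4 per group were at or under the floor. The 6 macrophage markers summed to 20.5 to 22.3 CPM in Scrambled, 23.9 to 24.3 CPM with siR-1 and 30.9 to 32.7 CPM with siR-2. They did not move alike. Of those that passed with both siRNAs, Csf1r rose by 0.49 (siR-1) and 1.14 (siR-2). C1qa changed by −0.68 (siR-1) and −0.81 (siR-2), and C1qb by −0.66 (siR-1) and −0.63 (siR-2). The 6 endothelial markers summed to 53.3 to 59.7 CPM in Scrambled, 49.6 to 54.5 CPM with siR-1 and 47.3 to 50.8 CPM with siR-2. The 6 T and NK cell markers summed to at most 0.317 CPM. The part of all these markers was not tested.

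The same question was put under IL-17, the cytokine whose response the study followed. The peptide-supply genes of the set, Psmb8, Psmb9, Psmb10, Tap1 and Tap2, fell with both siRNAs, and Nlrc5 fell with siR-1. The heavy chains and B2m again did not pass with either siRNA, nor did Tapbp. Of the 10 genes, 6 (siR-1) and 5 (siR-2) passed as lower, and none passed as higher. Over the 19906 genes in the fit, siR-1 gave 21.9% lower and 20.3% higher, and siR-2 25.6% lower and 25% higher. With a 1.5-fold change or more, the size the study asked for under IL-17, 5 of the 10 were lower with siR-1, against 7.97% of all genes, and 4 with siR-2, against 13.7%. The set had a median of −0.55 for siR-1 and −0.31 for siR-2, against −0.0026 and −0.017 over all genes. All libraries of the knockdown group lay below all Scrambled libraries for 6 of the 10 genes with siR-1, against 25.9% of all genes, and for 5 with siR-2, against 28.3%.

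Psmb8 under IL-17 stood at 14.6, 16.9 and 10.7 CPM in the Scrambled libraries, 5.80, 4.73 and 5.24 CPM with siR-1 and 3.55, 3.18 and 3.31 CPM with siR-2. No library of a knockdown group reached the Scrambled range, and the log2 fold change was −1.43 (SE 0.13, adjusted p = 1.4e-07) with siR-1 and −2.09 (SE 0.14, adjusted p = 8.33e-10) with siR-2. Psmb9 stood at 2.41, 2.97 and 1.96 CPM in the Scrambled libraries, 0.766, 0.474 and 0.425 CPM with siR-1 and 0.632, 0.736 and 0.571 CPM with siR-2. It fell by 2.15 on the log2 scale with siR-1 (adjusted p = 2.75e-06) and by 1.94 with siR-2 (adjusted p = 4.87e-06). Psmb10 changed less, from 27.1, 31.2 and 22.3 CPM to 20.3, 17.5 and 20.1 CPM with siR-1 and 20.9, 19.7 and 20.9 CPM with siR-2. Its groups did not overlap either, and its log2 fold changes were −0.49 (SE 0.098, adjusted p = 0.000934) and −0.41 (SE 0.098, adjusted p = 0.00258).

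Tap1 under IL-17 was at 30.2, 36.1 and 24.4 CPM in the Scrambled libraries, 13.2, 13.4 and 12.8 CPM with siR-1 and 14.3, 14.5 and 15.8 CPM with siR-2. All 6 knockdown libraries lay between 12.8 and 15.8 CPM, below the lowest Scrambled library. The log2 fold change was −1.21 (SE 0.11, adjusted p = 5.54e-07) with siR-1 and −1.04 (SE 0.11, adjusted p = 1.45e-06) with siR-2. Tap2 stood at 52.5, 58.6 and 45.4 CPM in the Scrambled libraries, 32.4, 28.4 and 27.7 CPM with siR-1 and 31.2, 31.6 and 29.5 CPM with siR-2, with log2 fold changes of −0.83 (SE 0.080, adjusted p = 6.82e-07) and −0.78 (SE 0.080, adjusted p = 8.04e-07). Nlrc5 was at 8.94, 10.9 and 6.70 CPM in the Scrambled libraries, 6.68, 5.06 and 5.71 CPM with siR-1 and 7.84, 9.59 and 8.32 CPM with siR-2. It passed with siR-1 at −0.61 (SE 0.15, adjusted p = 0.0043) and not with siR-2 at −0.063 (SE 0.15, adjusted p = 0.774), and all siR-2 libraries lay within the Scrambled range. Psmb8, Psmb9, Psmb10, Tap1 and Tap2 with both siRNAs, and Nlrc5 with siR-1, kept their call in all 6 fits that left out a library and in the 7 other settings.

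H2-K1 under IL-17 ranged from 131 to 161 CPM and H2-D1 from 205 to 247 CPM over the 9 libraries. The differences of H2-K1 were 0.0012 (adjusted p = 0.992) with siR-1 and −0.16 (adjusted p = 0.0534) with siR-2, and those of H2-D1 −0.12 (adjusted p = 0.0574) and −0.0080 (adjusted p = 0.914). The H2-D1 difference with siR-1 passed in 6 of 7 other settings, at sizes of at most 0.13 on the log2 scale, and that of H2-K1 with siR-2 in 4 of 7. B2m ranged from 668 to 736 CPM, with differences of −0.051 (adjusted p = 0.331) and −0.054 (adjusted p = 0.27). Tapbp was at 135, 149 and 123 CPM in the Scrambled libraries, 168, 138 and 152 CPM with siR-1 and 125, 114 and 119 CPM with siR-2, with differences of 0.16 (adjusted p = 0.207) and −0.21 (adjusted p = 0.0981), the latter passing in 1 of 7 other settings. The 20 interferon-stimulated genes summed to 899.8 to 1534 CPM in the Scrambled libraries, 566 to 703 CPM with siR-1 and 545 to 604 CPM with siR-2, and their part in the fall of the members was not tested. The cardiomyocyte markers summed to 69.7 to 76.6 CPM in Scrambled, 32.0 to 35.6 CPM with siR-1 and 22.8 to 25.9 CPM with siR-2. Of these, only Tnnt2 passed with both siRNAs (−1.11 and −1.62), and 2 to 3 per group were at or under the floor. The macrophage markers summed to 20.5 to 22.7 CPM in Scrambled, 25.7 to 26.1 CPM with siR-1 and 31.3 to 34.3 CPM with siR-2. Of those that passed with both siRNAs, Csf1r rose by 0.66 (siR-1) and 1.12 (siR-2). C1qa changed by −0.60 (siR-1) and −0.75 (siR-2), and C1qb by −0.57 (siR-1) and −0.59 (siR-2). The endothelial markers summed to 52.8 to 57.2 CPM in Scrambled, 44.8 to 51.3 CPM with siR-1 and 45.7 to 50.5 CPM with siR-2. The part of these markers was not tested either.

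**Figure D2:**
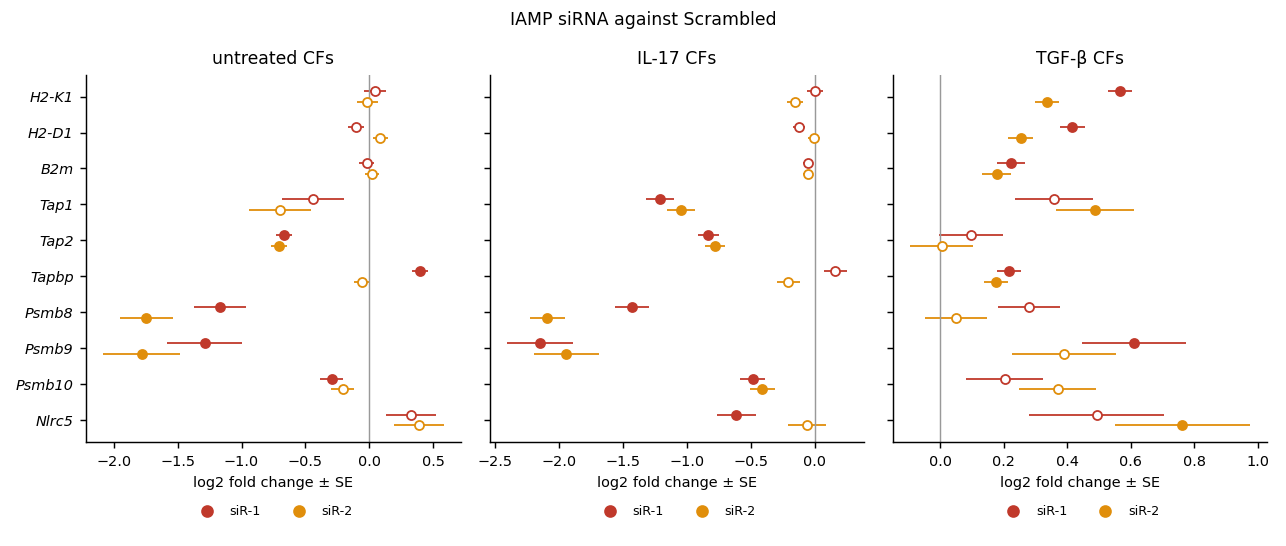
Log2 fold change of each of the 10 genes with siR-1 and siR-2 against Scrambled (horizontal axis, log2 scale), in untreated, IL-17-treated and TGF-β-treated CFs. Bars are standard errors, and filled points passed the edgeR test. Psmb8 and Psmb9 lie farthest to the left in untreated and IL-17-treated CFs, and under TGF-β all 20 points lie above 0, the lowest being Tap2 with siR-2 at 0.0048.

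The third comparison asks what knockdown does in CFs given TGF-β, the cytokine that turns fibroblasts into matrix-producing myofibroblasts. Here the genes that passed went up: H2-K1, H2-D1, B2m and Tapbp rose with both siRNAs, and Psmb8, Psmb10 and Tap2 did not pass with either. With siR-1, 5 of the 10 genes passed as higher, and with siR-2 6 did. None passed as lower. Over the 19891 genes in the fit, siR-1 gave 11.7% higher and 11.4% lower, and siR-2 15.1% higher and 14.8% lower. The changes were small. At 1.5-fold or more, the size used under IL-17, only Psmb9 with siR-1 and Nlrc5 with siR-2 remained, against 2.45% and 2.07% of all genes. The set had a median of 0.32 for siR-1 and 0.29 for siR-2, against 0.00030 and 0.013 over all genes. All siR-1 libraries lay above all Scrambled libraries for 9 of the 10 genes, against 18.4% of all genes, and all siR-2 libraries for 6, against 20.8%.

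H2-K1 under TGF-β stood at 1354, 1313 and 1400.3 CPM in the Scrambled libraries, 1921, 1995 and 2104 CPM with siR-1 and 1755, 1659 and 1715 CPM with siR-2. All 6 knockdown libraries exceeded all Scrambled libraries, and the log2 fold change was 0.57 (SE 0.039, adjusted p = 1.06e-08) with siR-1 and 0.34 (SE 0.039, adjusted p = 3.11e-06) with siR-2. H2-D1 was at 1265, 1212 and 1287 CPM in the Scrambled libraries, 1608, 1655 and 1757 CPM with siR-1 and 1551, 1456 and 1476 CPM with siR-2. Its groups were likewise apart, at 0.42 (SE 0.039, adjusted p = 4.76e-07) and 0.25 (SE 0.039, adjusted p = 7.35e-05). B2m stood at 4009, 3792 and 3659 CPM in the Scrambled libraries, 4526, 4523 and 4326 CPM with siR-1 and 4007, 4508 and 4434 CPM with siR-2, and the lowest siR-2 library lay within the Scrambled range. Its log2 fold change was 0.22 (SE 0.045, adjusted p = 0.00125) with siR-1 and 0.18 (SE 0.045, adjusted p = 0.00548) with siR-2. Tapbp was at 611, 636 and 649 CPM in the Scrambled libraries, 722, 734 and 747 CPM with siR-1 and 756, 699 and 685 CPM with siR-2, a difference of 0.22 (SE 0.038, adjusted p = 0.000428) and 0.18 (SE 0.038, adjusted p = 0.00183). The calls of these 4 genes held in every fit that left out a library and in the 7 other settings.

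The peptide-supply genes were less certain. Psmb9 stood at 14.1, 17.6 and 14.9 CPM in the Scrambled libraries, 22, 23.7 and 25.2 CPM with siR-1 and 25.2, 19.9 and 15.9 CPM with siR-2. It passed with siR-1 at 0.61 (SE 0.16, adjusted p = 0.0306), a call lost in 5 of the 6 fits without a library (all but the one without Scrambled 2), and with siR-2 it was 0.39 (adjusted p = 0.121). Tap1 was at 110.0, 129 and 124 CPM in the Scrambled libraries, 142, 151 and 172 CPM with siR-1 and 196, 159 and 152 CPM with siR-2. All knockdown libraries lay above the Scrambled range, and the difference passed with siR-2 (0.49, SE 0.12, adjusted p = 0.0238) and not with siR-1 (0.36, SE 0.12, adjusted p = 0.0877). The siR-2 call was lost without Scrambled 1 or Scrambled 3, so Psmb9 and Tap1 each passed with 1 siRNA, on a call that rested on single libraries. Psmb8 stood at 64.9, 70.9 and 74.0 CPM in the Scrambled libraries, 78.7, 86.0 and 89.8 CPM with siR-1 and 82.6, 71.2 and 63.3 CPM with siR-2, with differences of 0.28 (adjusted p = 0.0748) and 0.051 (adjusted p = 0.773). Tap2 ranged from 77.5 to 99.7 CPM, with differences of 0.097 (adjusted p = 0.597) and 0.0048 (adjusted p = 0.982). Psmb10 was at 56.2, 67.0 and 64.6 CPM in the Scrambled libraries, 68.7, 69.1 and 78.2 CPM with siR-1 and 94.7, 77.0 and 70.8 CPM with siR-2, with differences of 0.20 (adjusted p = 0.313) and 0.37 (adjusted p = 0.0579). Psmb8, Tap2 and Psmb10, which were lower under IL-17, did not pass as lower here. In the 7 other settings the siR-1 differences of Psmb8 and Tap1 passed in 2 each and that of Psmb10 in 1, and the siR-2 differences of Psmb9 and Psmb10 in 1 each. The Psmb9 call with siR-1 held in 5 of 7 settings and the Tap1 call with siR-2 in 6 of 7.

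Nlrc5 under TGF-β stood at 22.3, 29.7 and 28.5 CPM in the Scrambled libraries, 33.3, 36.2 and 43.7 CPM with siR-1 and 57.8, 42.8 and 35.9 CPM with siR-2, and every knockdown library was above every Scrambled library. The difference passed with siR-2 at 0.76 (SE 0.21, adjusted p = 0.0382) and not with siR-1 at 0.49 (SE 0.21, adjusted p = 0.171), and the siR-2 call was lost in 5 of 6 fits without a library (all but the one without siR-2 3) and held in 4 of 7 other settings, while the siR-1 difference passed in 1 of 7. The 20 interferon-stimulated genes summed to 5657 to 6492 CPM in Scrambled, 7189.9 to 8324 CPM with siR-1 and 6933 to 8902 CPM with siR-2, higher in all knockdown libraries, and their part in these rises was not tested. The macrophage markers summed to 38.3 to 45.2 CPM in Scrambled, 33.7 to 36.7 CPM with siR-1 and 39.9 to 41.1 CPM with siR-2. Of those that passed with both siRNAs, C1qa changed by −0.98 (siR-1) and −0.90 (siR-2), and Cd68 by −0.26 (siR-1) and −0.25 (siR-2). The endothelial markers summed to 99.7 to 102 CPM in Scrambled, 104 to 105 CPM with siR-1 and 95.6 to 100.1 CPM with siR-2. The cardiomyocyte markers summed to 5.29 to 5.98 CPM in Scrambled, 3.84 to 4.87 CPM with siR-1 and 3.33 to 3.92 CPM with siR-2. Of the cardiomyocyte markers, only Tnnt2 passed with both siRNAs (−0.48 and −0.67), and 2 to 3 per group were at or under the floor. The part of these markers was not tested.

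The 2 siRNAs were set against each other as well. In untreated CFs 3 of the 10 genes differed between them, against 45.5% of all genes, counted in either direction. Tapbp was lower with siR-2 than with siR-1, at −0.45 (SE 0.061, adjusted p = 4.69e-05). Psmb8 was lower at −0.58 (SE 0.21, adjusted p = 0.0413), and H2-D1 was higher at 0.19 (SE 0.061, adjusted p = 0.025). The Psmb8 and H2-D1 calls were each lost in 3 of 6 fits without a library (Psmb8 without siR-1 3, siR-2 2 or siR-2 3, and H2-D1 without siR-1 1, siR-1 2 or siR-2 3). Under IL-17, 3 of 10 differed, against 46.2%: Psmb8 and Tapbp were lower with siR-2, at −0.66 (adjusted p = 0.000683) and −0.37 (adjusted p = 0.0111), and Nlrc5 was higher, at 0.55 (adjusted p = 0.00786), a call lost without siR-1 2. H2-D1 and H2-K1 did not pass there, and did in 5 of 7 and 3 of 7 other settings. Under TGF-β, 2 of 10 differed, against 24%: H2-K1 and H2-D1 were lower with siR-2, at −0.23 (adjusted p = 0.000264) and −0.16 (adjusted p = 0.00479). Tap2 and B2m did not pass between the siRNAs in any of the 3 conditions, while Tapbp, Psmb8 and H2-D1 did in more than 1, H2-D1 with opposite signs.

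Stimuli were compared in Scrambled CFs, across tables. Stimulus and deposited table cannot be told apart, since each treatment fills its own table. With IL-17, Tap2, Psmb10 and Nlrc5 were higher than in untreated CFs, and the other 7 genes did not pass. The 3 that rose compare with 6.61% of 21219 genes, and none of the 10 reached a log2 fold change of 1, against 1.09% of all genes. Tap2 went from 42.3, 39.2 and 41.4 to 52.5, 58.6 and 45.4 CPM, a log2 fold change of 0.35 (SE 0.075, adjusted p = 0.00211). Psmb10 went from 21.2, 17.5 and 21.0 to 27.1, 31.2 and 22.3 CPM (0.43, SE 0.11, adjusted p = 0.0099), a call lost when only the 2 groups compared were fitted (adjusted p = 0.0709). Nlrc5 went from 5.59, 4.48 and 5.13 to 8.94, 10.9 and 6.70 CPM (0.80, SE 0.21, adjusted p = 0.0156), a call lost in 4 of 6 fits without a library (untreated Scrambled 2 or 3, IL-17 Scrambled 1 or 2). In these 3 genes and 1 other, H2-K1, the IL-17 libraries lay above the untreated range, 4 of 10 against 12.4% of all genes. Of the rest, Tapbp was at 0.24 (adjusted p = 0.0831), Psmb8 at 0.50 (adjusted p = 0.118), Psmb9 at 0.54 (adjusted p = 0.242), Tap1 at 0.41 (adjusted p = 0.245), H2-K1 at 0.22 (adjusted p = 0.112), H2-D1 at 0.096 (adjusted p = 0.449) and B2m at 0.030 (adjusted p = 0.87). Tapbp and Psmb8 passed with DESeq2 alone of the 7 other settings (adjusted p = 0.021 and 0.0356), and H2-K1 passed in 3 of them.

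In the TGF-β table all 10 genes were higher than in untreated CFs, and in each the 3 TGF-β libraries lay above the 3 untreated ones, as they did for 33.5% of all genes. All 10 passed both rules, against 29.3% of 21508 genes by adjusted p alone and 12.5% with a log2 fold change of at least 1. The heavy chain H2-K1 rose most, from 128, 121 and 129.9 to 1354, 1313 and 1400.3 CPM, 10.7-fold with a log2 fold change of 3.42 (SE 0.072, adjusted p = 7.61e-17). H2-D1 went from 227, 211 and 214 to 1265, 1212 and 1287 CPM (2.53, SE 0.055, adjusted p = 1.48e-19) and B2m from 683, 726 and 677 to 4009, 3792 and 3659 CPM (2.46, SE 0.058, adjusted p = 5.55e-18). The immunoproteasome genes did not rise alike. Psmb9 was 9.19-fold higher (3.20, SE 0.23, adjusted p = 1.06e-08), Psmb8 7.02-fold (2.81, SE 0.19, adjusted p = 1.14e-08) and Psmb10 3.14-fold (1.65, SE 0.12, adjusted p = 6.46e-09). Of the loading genes, Tapbp rose by 2.46 (SE 0.056, adjusted p = 5.3e-19) and Tap1 by 2.41 (SE 0.20, adjusted p = 1.64e-07), while Tap2, at 1.06 (SE 0.084, adjusted p = 3.17e-09), rose least of the 10. Nlrc5 rose by 2.40 (SE 0.24, adjusted p = 9.74e-07). Every one of these calls held in the 6 fits without a library and the 7 other settings.

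Other measures moved with the same tables. The 20 interferon-stimulated genes were all higher in the TGF-β table, with a median log2 fold change of 3.12 against 0.029 over all genes, and summed to 5657 to 6492 CPM against 665 to 1079 CPM. Markers of other cells moved as well. In Scrambled CFs the 6 macrophage markers summed to 38.3 to 45.2 CPM against 20.5 to 22.3 CPM. The 6 endothelial markers summed to 99.7 to 102 against 53.3 to 59.7, and the 6 cardiomyocyte markers to 5.29 to 5.98 against 90.2 to 98.0. Of the cardiomyocyte markers, 2 were at or under the floor in each of these groups. T and NK cell markers summed to 0.705 to 1.01 against 0.225 to 0.317 CPM, with Cd3e and Nkg7 at 0. The part of these cells, and of the experiment behind each table, in the rise of the 10 genes was not tested.

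**Figure D3:**
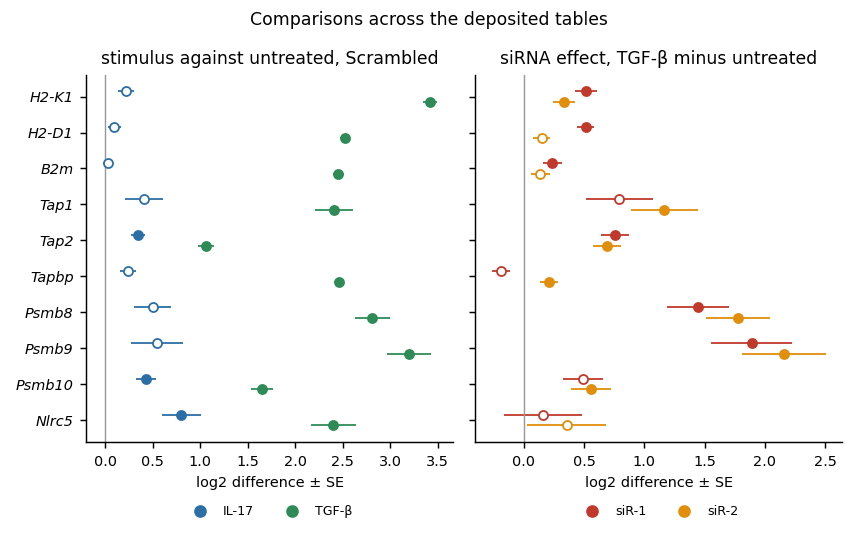
Log2 fold change of each of the 10 genes in Scrambled CFs under IL-17 and under TGF-β against untreated CFs (left), and siRNA effect under TGF-β minus that in untreated CFs (right), on log2 axes. Bars are standard errors, filled points passed the edgeR test, and the TGF-β points on the left run from 1.06 (Tap2) to 3.42 (H2-K1), and the IL-17 points from 0.030 (B2m) to 0.80 (Nlrc5).

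Whether the siRNA effect differed between conditions was tested as an interaction, the change against Scrambled under a stimulus minus that in untreated CFs. Under TGF-β the siRNA effect on the peptide-supply genes was more positive than in untreated CFs. With siR-1, 6 of the 10 interactions passed, all positive, against 9.19% of all genes, and with siR-2 7 passed, against 14.6%. Those of 1 or more on the log2 scale were 2 and 3, against 1.43% and 2.88%. Psmb9 gave 1.89 (SE 0.34, adjusted p = 0.000871) with siR-1 and 2.16 (SE 0.35, adjusted p = 0.000207) with siR-2, and Psmb8 gave 1.44 (SE 0.26, adjusted p = 0.0012) and 1.78 (SE 0.26, adjusted p = 0.000145). Tap2 gave 0.76 (SE 0.12, adjusted p = 0.000142) and 0.69 (SE 0.12, adjusted p = 0.000185), and H2-K1 0.52 (SE 0.093, adjusted p = 0.000662) and 0.33 (SE 0.093, adjusted p = 0.0118). Tap1 and Psmb10 passed with siR-2, at 1.17 (SE 0.28, adjusted p = 0.00564) and 0.56 (SE 0.17, adjusted p = 0.0177), and did not pass with siR-1, at 0.79 (adjusted p = 0.0643) and 0.49 (adjusted p = 0.0514), although with siR-1 each passed in 3 of 6 other settings, DESeq2 among them. H2-D1 passed with siR-1 at 0.51 (SE 0.073, adjusted p = 2.48e-05) and not with siR-2 at 0.15 (adjusted p = 0.147). B2m passed with siR-1 at 0.24 (adjusted p = 0.0371) and Tapbp with siR-2 at 0.21 (adjusted p = 0.0393), and these calls were lost in 7 and 6 of 12 fits without a library. The calls of Psmb8, Psmb9, Tap2 and H2-K1 held in all 12 such fits. Tapbp with siR-1 was at −0.19 (adjusted p = 0.0936). Nlrc5 passed with neither, at 0.16 (adjusted p = 0.845) and 0.36 (adjusted p = 0.497). The knockdown of 4930523C07Rik was itself weaker under TGF-β than in untreated CFs, with interactions of 0.73 (SE 0.15, adjusted p = 0.00113) with siR-1 and 1.03 (SE 0.16, adjusted p = 1.7e-05) with siR-2, and its part in these differences was not tested.

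Under IL-17 no interaction passed in edgeR, with either siRNA, against 2.13% of all genes with siR-1 and 1.89% with siR-2. Before adjustment, p was under 0.05 for 3 with siR-1 (Psmb9, Tap1 and Nlrc5) and 0 with siR-2. Over all 21219 genes it was under 0.05 for 2517 with siR-1 and 2055 with siR-2. DESeq2 called 1 (Nlrc5 with siR-1, adjusted p = 0.0134) and 0 of the 10, against 746 and 585 of 12988 genes. The interaction of Nlrc5 with siR-1 was −0.94 (SE 0.29, adjusted p = 0.144) and passed without untreated siR-1 2, and that of Tap1 was −0.77 (SE 0.29, adjusted p = 0.276). Tap1 passed under IL-17 and not in untreated CFs, and the test of that difference did not pass. All interactions of a stimulus share the untreated Scrambled libraries.

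The ratio of an inducible subunit to the constitutive subunit it replaces was taken per length within each library. Psmb8 to Psmb5 was 0.0304 ± 0.00388 (SD, n = 3) in untreated Scrambled CFs, 0.0156 ± 0.00371 with siR-1 and 0.00808 ± 0.00187 with siR-2. Under IL-17 it was 0.0452 ± 0.00907, 0.0182 ± 0.00267 and 0.00903 ± 0.000502, and under TGF-β 0.246 ± 0.0301, 0.342 ± 0.0285 and 0.238 ± 0.0360. Psmb8 was thus the lesser RNA in all 27 CF libraries. Psmb9 to Psmb6 was 0.0120 ± 0.00339, 0.00676 ± 0.00187 and 0.00286 ± 0.000478 in untreated CFs, and 0.0854 ± 0.0122, 0.144 ± 0.00794 and 0.0928 ± 0.0202 under TGF-β. Under IL-17 it was 0.0182 ± 0.00331 in Scrambled, 0.00485 ± 0.00153 with siR-1 and 0.00381 ± 0.000514 with siR-2. Psmb10 to Psmb7 was different in size, 0.344 ± 0.0229 in untreated Scrambled CFs, 0.511 ± 0.0386 under IL-17 and 1.33 ± 0.194 under TGF-β, above 1 in all 9 TGF-β libraries. The denominators moved too, since Psmb6 changed by −0.46 with siR-1 (adjusted p = 1.81e-07) and by 0.29 with siR-2 (adjusted p = 1.82e-05) in untreated CFs, in opposite directions. The ratio of H2-K1 to H2-D1 was 0.511 ± 0.0191 in untreated Scrambled CFs and 0.948 ± 0.00831 under TGF-β, with no overlap between libraries. Under TGF-β it was 1.05 ± 0.00500 with siR-1, above 1 in all 3 libraries, and 1.00 ± 0.0138 with siR-2, within its SD of 1. No test was run on these ratios.

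**Figure D4:**
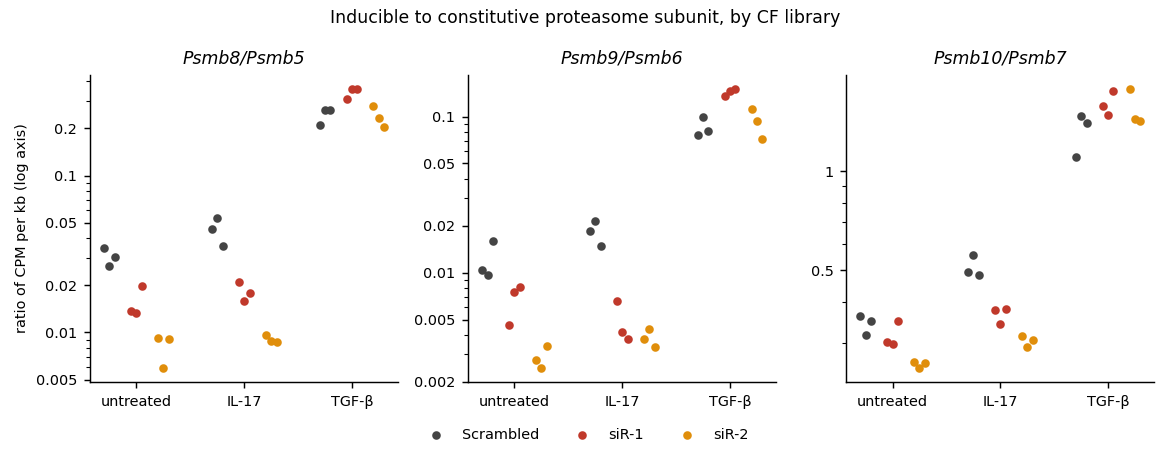
Ratio per length of Psmb8 to Psmb5, Psmb9 to Psmb6 and Psmb10 to Psmb7 in the 27 CF libraries (log axis, points for libraries, 3 per group, coloured by siRNA). In untreated and IL-17-treated CFs every knockdown library lies below every Scrambled library for Psmb8 to Psmb5 and Psmb9 to Psmb6, and all 3 ratios are highest under TGF-β.

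The partners of the set were counted in lists, by the genes that passed in each direction. The counts are to be read against the shares of all genes that passed. In untreated CFs these were 19.5% up and 20.4% down with siR-1, and 24.4% up and 25% down with siR-2. Under IL-17 they were 20.3% up and 21.9% down for siR-1, and 25% up and 25.6% down for siR-2. Under TGF-β they were 11.7% up and 11.4% down for siR-1, and 15.1% up and 14.8% down for siR-2. The median of all genes was between −0.02 and 0.013 in these comparisons. The 7 chaperones and partners of peptide loading gave 6 of 7 up and 0 down with siR-1, and 3 up and 3 down with siR-2 in untreated CFs, with medians of 0.51 and 0.14. Pdia3 (ERp57), which bridges tapasin and the heavy chain, rose by 0.61 (siR-1) and 0.14 (siR-2), and calreticulin (Calr) by 0.54 (siR-1) and 0.20 (siR-2). Hspa5 (BiP), a general chaperone of the endoplasmic reticulum, rose by 0.59 (siR-1) and 0.57 (siR-2). These 3 partners rose with both siRNAs, as Tap2 fell with both. Under IL-17 the list gave 5 of 7 up and 1 down with siR-1, and 3 up and 3 down with siR-2, with Pdia3 at 0.66 (siR-1) and 0.17 (siR-2), and Erap1, which trims peptides, changed by −0.15 (siR-1) and −0.33 (siR-2). Under TGF-β it gave 4 of 7 up and 1 down with siR-1, and 6 up and 0 down with siR-2, and Erap1 rose by 0.35 (siR-1) and 0.16 (siR-2).

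The 8 proteasome partners gave 1 of 8 up and 6 down with siR-1, and 5 up and 2 down with siR-2 in untreated CFs, with medians of −0.20 and 0.18. They gave 1 of 8 up and 4 down with siR-1, and 6 up and 2 down with siR-2 under IL-17, with medians of −0.091 and 0.28. Under TGF-β they gave 0 of 8 up and 2 down with siR-1, and 5 up and 0 down with siR-2. The constitutive subunits Psmb5, Psmb6 and Psmb7 went down with siR-1 and up with siR-2 in untreated CFs. Psme1 and Psme2, the subunits of the interferon-inducible PA28 activator, fell with both. In untreated CFs Psme2 changed by −0.39 (siR-1) and −0.71 (siR-2), and Psme1 by −0.33 (siR-1) and −0.32 (siR-2). Under IL-17 Psme2 changed by −0.41 (siR-1) and −0.58 (siR-2), and Psme1 by −0.33 (siR-1) and −0.28 (siR-2).

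The list of 16 other class I and class I-like heavy chains gave 1 of 14 up and 2 down with siR-1, and 3 up and 5 down with siR-2 in untreated CFs, with medians of −0.090 and −0.044. Under IL-17 it gave 1 of 14 up and 5 down with siR-1, and 2 up and 7 down with siR-2, with medians of −0.22 and −0.093. H2-T22 changed by −0.39 (siR-1) and −1.32 (siR-2) under IL-17, and H2-M3, which presents formylated peptides, by −0.43 (siR-1) and −0.57 (siR-2). Under TGF-β most rose, 13 of 16 up and 0 down with siR-1, and 10 up and 0 down with siR-2, with medians of 0.69 and 0.38. H2-Q7 rose by 1.32 (siR-1) and 0.86 (siR-2), H2-Q6 by 1.23 (siR-1) and 0.68 (siR-2) and H2-M3 by 0.68 (siR-1) and 0.58 (siR-2). H2-Q6 and H2-Q7 are close relatives, and how the counting split reads shared within their family was not tested. Between untreated and TGF-β-treated Scrambled CFs, 13 of 16 rose and 0 fell, with a median of 1.88, against 29.3% and 28% of all genes.

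The 19 regulators of class I transcription gave 2 of 19 up and 12 down with siR-1, and 6 up and 10 down with siR-2 in untreated CFs, with medians of −0.24 and −0.18. Under IL-17 they gave 1 of 19 up and 14 down with siR-1, and 5 up and 11 down with siR-2, with medians of −0.27 and −0.22. Rfx5, a subunit of the RFX complex that binds class I and class II promoters, changed by −0.56 (siR-1) and −0.97 (siR-2) in untreated CFs and by −0.90 (siR-1) and −1.30 (siR-2) under IL-17. Irf1, a transcription factor that acts downstream of interferon-γ, changed by −0.34 (siR-1) and −0.94 (siR-2) in untreated CFs, and Irf8, a related factor, by −1.46 (siR-1) and −1.41 (siR-2). Stat2, an interferon signal transducer, fell under IL-17, changing by −1.30 (siR-1) and −1.2 (siR-2). Ezh2, the methyltransferase of a complex that represses class I genes in some cells, also fell in untreated CFs, changing by −0.73 (siR-1) and −1.02 (siR-2). Under TGF-β the list gave 2 of 19 up and 5 down with siR-1, and 3 up and 4 down with siR-2. Between untreated and TGF-β-treated Scrambled CFs, 9 of the 19 rose and 7 fell, with a median of 0.062. Of those named here, Stat2 (1.83), Irf1 (1.17) and Rfx5 (0.52) were higher under TGF-β, and Ezh2 (−1.93) and Irf8 (−0.88) lower.

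The 20 interferon-stimulated genes gave 0 of 20 up and 0 down with siR-1, and 0 up and 4 down with siR-2 in untreated CFs, with medians of −0.40 and −0.61. Under IL-17 they gave 0 of 20 up and 16 down with siR-1, and 0 up and 18 down with siR-2, with medians of −1.34 and −1.26. Mx1, an antiviral GTPase, changed by −2.74 (siR-1) and −2.66 (siR-2), and Cxcl10, a chemokine for T cells, by −1.99 (siR-1) and −2.52 (siR-2). Under TGF-β they gave 7 of 20 up and 0 down with siR-1, and 7 up and 0 down with siR-2, and Bst2 (tetherin) rose by 0.37 (siR-1) and 0.49 (siR-2). The 12 interferon ligands, receptors and kinases gave 5 of 10 up and 2 down with siR-1, and 5 up and 3 down with siR-2 in untreated CFs, with medians of 0.19 and 0.21. They gave 5 of 10 up and 5 down with siR-1, and 4 up and 4 down with siR-2 under IL-17. Under TGF-β they gave 5 of 11 up and 1 down with siR-1, and 4 up and 1 down with siR-2. Of the ligands, Ifng was at 0 in all untreated and IL-17-treated libraries, and under TGF-β in Scrambled and with siR-2. Ifnb1 was at 0 in untreated CFs with siR-2 and in IL-17-treated CFs with either siRNA. The receptor chain Ifngr2 rose in untreated CFs by 0.40 (siR-1) and 0.32 (siR-2), and Socs1, an inhibitor of the pathway, changed by −0.70 (siR-1) and −0.71 (siR-2). The 7 class II genes summed to only 5.13 to 18.7 CPM in CFs and gave 0 of 6 up and 1 down with siR-1, and 0 up and 1 down with siR-2 in untreated CFs. They gave 0 of 6 up and 1 down with siR-1, and 0 up and 1 down with siR-2 under IL-17, and 0 of 6 up and 0 down with siR-1, and 0 up and 3 down with siR-2 under TGF-β. The lists were written with earlier results of these data known, and no list was tested as a whole.

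The genes whose pattern was most like that of the set were sought by Pearson's r between log2 CPM and the mean standardised log2 CPM of the 10 genes, over the 9 CF group means, among 13320 genes of at least 1 CPM on average. The 5 highest were Ifitm3 (r = 0.998), Dhx58 (r = 0.998), Irf7 (r = 0.998), Ifi44 (r = 0.998) and Phf11b (r = 0.998). Ifitm3, an antiviral membrane protein, stood at 281 ± 24.8 CPM in untreated Scrambled CFs, 309.8 ± 37.6 CPM under IL-17 and 1087 ± 39.6 CPM under TGF-β. Irf7, a factor that drives interferon production, stood at 31.0 ± 8.67, 49.7 ± 16.3 and 768 ± 30.2 CPM in the same groups. The 9 means fall into TGF-β and the rest, and over the 6 means without TGF-β, a measure chosen after seeing the data, r was between 0.892 and 0.935 for these 5 genes. The means share libraries and scaling.

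The last comparison asks whether hearts without IAMP differ at baseline. None of the 10 genes passed the edgeR test, nor did any of the 16675 genes in the fit (0%). Before adjustment, p was under 0.05 for 601 genes, among them H2-D1 and Nlrc5, and DESeq2 called 3 genes, none of them in the set. The values of KO and HET hearts overlapped for all 10 genes, where over all genes 1.18% had all KO hearts below all HET hearts and 1.19% had them above. The median log2 fold change, KO against HET, was −0.20 for the set and −0.0011 for all genes, and 9 of 10 values were below 0.

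H2-D1 stood at 86.8, 100.5, 107 and 92.7 CPM in the HET hearts and at 83.2, 85.0, 87.5 and 80.5 CPM in the KO hearts. The lowest HET heart lay within the KO range, and the log2 fold change was −0.20 (SE 0.063, adjusted p = 1). Nlrc5 stood at 2.09, 2.44, 2.04 and 1.56 CPM in HET and 1.87, 1.56, 1.48 and 0.863 CPM in KO hearts, on 20 to 56 counts per library, with a log2 fold change of −0.49 (SE 0.22, adjusted p = 1). An exact two-sided permutation test over the 8 hearts gave p = 0.0571 for each of these 2 genes, where the smallest p this design allows is 0.0286. The other 8 exact p values ran from 0.171 to 0.743, and all 10 are unadjusted. B2m stood at 110.4, 139, 154 and 97.2 CPM in HET and 112, 105, 92.1 and 102 CPM in KO hearts, and 1 KO heart lay below the HET range. The log2 fold change of B2m was −0.29 (SE 0.14, adjusted p = 1). H2-K1 stood at 51.3, 66.9, 75.2 and 51.8 CPM in HET and 52.6, 48.1, 55.6 and 44.1 CPM in KO hearts, a log2 fold change of −0.29 (SE 0.13, adjusted p = 1).

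In the same hearts the 7 class II genes summed to 86.1 to 163 CPM in HET and 88.8 to 101 CPM in KO, and the 6 macrophage markers to 112 to 131 and 101 to 120.2 CPM, and their part in the class I levels was not tested. Tapbp varied least, at 53.2 to 55.8 CPM in HET and 53.3 to 58.8 CPM in KO hearts, with a log2 fold change of 0.023 (SE 0.046, adjusted p = 1). Psmb8 ranged from 4.88 to 6.57 CPM in HET and from 4.87 to 5.69 CPM in KO hearts, a log2 fold change of −0.053 (SE 0.11, adjusted p = 1). Psmb9 was at −0.23 (SE 0.20, adjusted p = 1), Psmb10 at −0.15 (SE 0.085, adjusted p = 1), Tap1 at −0.20 (SE 0.12, adjusted p = 1) and Tap2 at −0.13 (SE 0.087, adjusted p = 1). The transporter genes ranged in the 8 hearts from 6.00 to 9.14 CPM (Tap1) and from 15.9 to 21.2 CPM (Tap2). The ratio per length of Psmb8 to Psmb5 was 0.0290 ± 0.00452 (SD, n = 4) in HET and 0.0296 ± 0.00183 in KO hearts. Heart columns could be mapped to a genotype and not to single animals.

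**Figure D5:**
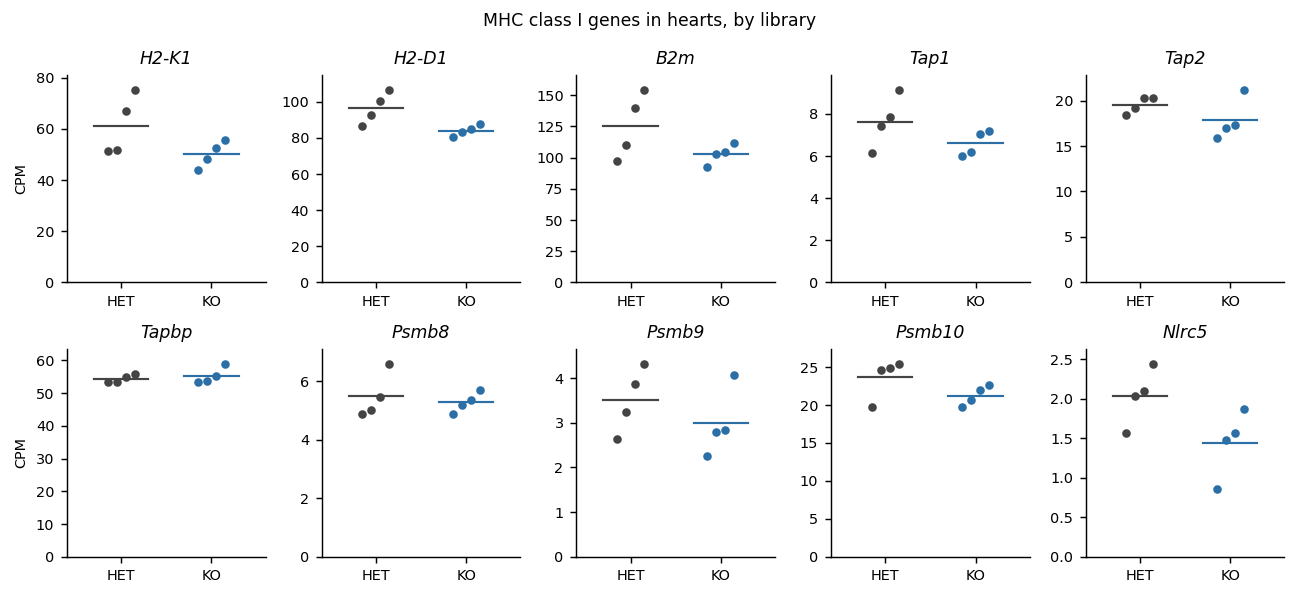
CPM of each of the 10 genes in the 4 HET and 4 KO hearts, 1 panel per gene with CPM on the vertical axis, points for hearts and a line for the group mean. The groups overlap in all 10 panels.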

How the data were processed

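RNA-Seq was measured in 27 CF libraries and 8 heart libraries, on GRCm38, and the submitters' processing notes name cutadapt, HISAT2, StringTie and DESeq2. The CF tables were deposited by the authors as estimated counts per gene, whole numbers in which 6 is the most frequent value of genes seen in a single library, so a read pair was taken as about 6 units. The heart table was deposited as raw counts per gene. The strand setting and the annotation release are not given in the sources used here, and no column was left unmapped.

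Groups came from the labels. Rows were kept by edgeR's filterByExpr. TMM factors were computed, and the quasi-likelihood F-test (edgeR 4.0.16, limma 3.58.1, R 4.3.3, robust fit) compared groups without covariates, with Benjamini-Hochberg adjustment over all genes of each fit. The fits held 9 libraries for siRNA effects, 18 for stimuli and interactions, and 8 for hearts. Standard errors are those of the fitted coefficients. The tests on estimated counts treat them as counts, and dividing them by 6 was tried as an alternative, along with DESeq2 1.42.0, RLE factors, 2 other filters on low counts, a replicate block, fits of only the groups compared and fits without each library. The code was run on simulated counts with known fold changes first. No 2 libraries held identical values. The same-number libraries of a table did not deviate together, with correlations of −0.0652 to 0.0281, so the block was not used.

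The 10 genes and all lists were chosen with earlier results of these data known. Genes named are the 10, the IAMP gene, up to 4 genes per list that passed with both siRNAs and changed most, partners of the 10 by role, and the 5 genes most like the set. Floors cover counting error only, while SDs and standard errors include the spread between libraries.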

Additional observations from a re-analysis of the deposited data

Results flagged for a closer look

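Psmb10 in HET hearts had 1 library far from the others. The lowest HET heart held 19.8 CPM and the other 3 held 24.7 to 25.4 CPM, a gap of 0.871 of the whole range by Dixon's ratio. The 10 genes in 2 heart groups make 20 such groups, and chance flags about 1 in 20. The Psmb10 difference between KO and HET hearts did not pass with or without this library.

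The siRNA effect differed between TGF-β-treated and untreated CFs for Psmb9, by 1.89 (siR-1) and 2.16 (siR-2) on the log2 scale. For Psmb8 the difference was 1.44 (siR-1) and 1.78 (siR-2), and for Tap1 it was 1.17 (siR-2). In untreated CFs these genes stood lower with the siRNAs (Tap1 without passing the test), and under TGF-β their log2 fold changes were above 0. TGF-β treatment and the table that holds it cannot be told apart.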

How the results depend on the processing

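Of 1220 values refitted without a library, 1114 kept their direction and their side of the threshold, and of 1050 values under the other settings 979 did. Psmb8, Psmb9 and Tap2 against Scrambled in untreated and IL-17-treated CFs, H2-K1, H2-D1, B2m and Tapbp under TGF-β with either siRNA, and all 10 genes in TGF-β-treated against untreated Scrambled CFs kept their call throughout. The causes of the changes below were not tested.

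The counts that follow are of those of the 10 genes that passed with a fold change as well. The size was 2-fold in untreated CFs, between tables and for interactions, and 1.5-fold under IL-17 and TGF-β. For the changed settings no share of all genes was counted, so these counts show only how the calls of the 10 genes moved. With the 2 sizes exchanged, 3 genes in place of 2 were lower with each siRNA in untreated CFs, 3 in place of 5 with siR-1 and 3 in place of 4 with siR-2 under IL-17, and 0 in place of 1 with siR-2 against siR-1 under IL-17. Under TGF-β 0 in place of 1 was higher with each siRNA. In Scrambled CFs 1 in place of 0 was higher with IL-17 than untreated, and the positive interactions of TGF-β were 3 in place of 2 (siR-1) and 4 in place of 3 (siR-2). With no filter on low counts, the genes higher by 1.5-fold under TGF-β were 0 with each siRNA, as they were for siR-2 with only the 2 groups compared fitted. H2-K1 with siR-1 under IL-17 turned to −0.0029 with no filter, −0.0037 with at least 10 counts in every library and −0.0018 with the estimated counts divided by 6. B2m with siR-2 against siR-1 under IL-17 turned to 0.0038 by DESeq2, 0.0038 by RLE factors, 0.0088 with no filter and 0.0059 with only the 2 groups, and Tap2 with siR-2 under TGF-β turned to −0.0079 with only the 2 groups.

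The replicate numbers did not pair the libraries (no same-number correlation above 0.1). With the replicate number as a block, the genes that passed at 1.5-fold under TGF-β were 0 with siR-1 and 0 with siR-2, in place of 1 each, and the block left 137 of 150 values in place, with 10 newly passing and 3 lost. For the hearts no paired analysis was possible because their columns carry no replicate numbers.

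Without a library in turn, the count of genes lower by 2-fold with siR-1 in untreated CFs was 1 to 2 (1 without Scrambled 3), that of genes higher by 1.5-fold with each siRNA under TGF-β 0 to 1, that of genes higher by 1.5-fold with siR-2 against siR-1 under IL-17 0 to 1, and that of interactions of −1 or lower of IL-17 with siR-1 0 to 1 (1 without untreated siR-1 2). These log2 fold changes, none of which passed with all libraries in, changed sign without a library. In siR-1 against Scrambled in untreated CFs the range was −0.018 to 0.10 for H2-K1 and −0.041 to 0.011 for B2m. In siR-2 against Scrambled in untreated CFs the range was −0.11 to 0.037 for H2-K1, −0.060 to 0.071 for B2m and −0.10 to 0.0020 for Tapbp. In siR-2 against siR-1 in untreated CFs the range was −0.15 to 0.0035 for H2-K1, −0.040 to 0.090 for B2m, −0.44 to 0.031 for Tap1, −0.098 to 0.022 for Tap2 and −0.13 to 0.35 for Nlrc5. In siR-1 against Scrambled under IL-17 the range was −0.065 to 0.050 for H2-K1. In siR-2 against Scrambled under IL-17 the range was −0.052 to 0.037 for H2-D1 and −0.23 to 0.11 for Nlrc5. In siR-2 against siR-1 under IL-17 the range was −0.034 to 0.032 for B2m. In siR-2 against Scrambled under TGF-β the range was −0.10 to 0.073 for Tap2 and −0.055 to 0.14 for Psmb8. In siR-2 against siR-1 under TGF-β the range was −0.079 to 0.0047 for B2m. In the interaction of IL-17 with siR-1 the range was −0.10 to 0.020 for H2-K1 and −0.076 to 0.030 for H2-D1. In the interaction of IL-17 with siR-2 the range was −0.12 to 0.015 for B2m, −0.15 to 0.024 for Tap2 and −0.45 to 0.019 for Psmb9. In the interaction of TGF-β with siR-1 the range was −0.025 to 0.46 for Nlrc5. In KO against HET hearts the range was −0.0087 to 0.040 for Tapbp and −0.10 to 0.047 for Psmb8.

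The hearts held Nlrc5 at 20 to 56 counts per library, which limits its precision, and Psmb9 rested on 47 to 92 estimated counts in untreated knockdown CFs.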
